A study of Populus tomentosa with 12 samples.

Results

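Transcript levels in roots were set against those in shoots of Chinese white poplar (Populus tomentosa) plants that had been moved to a nutrient solution without iron. The comparison used 6 of the 12 libraries of the study, chosen by their labels: 3 of Fe-deficient roots and 3 of Fe-deficient shoots, both at 0 µM Fe. The other 6 libraries, 3 of Fe-sufficient roots and 3 of Fe-sufficient shoots at 100 µM Fe, served to ask which tissue differences also held with Fe. All plants had been propagated in vitro on medium with sucrose and the auxin NAA, and the labels name no transgene or mutation in any group. Temperature, hours of light per day and shoot length are given as the same for all groups. The labels call the replicates biological but do not say how many plants each holds or how long the plants were without Fe. The p-values therefore measure the spread between these libraries. Fe-sufficient shoots are titled CK and Fe-deficient shoots WT, which is not explained. Groups were taken from the Fe and tissue labels.

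Iron is needed for photosynthetic and respiratory electron transport and for chlorophyll synthesis, and it is poorly soluble in most soils. Roots of plants other than grasses take it up by acidifying their surroundings, reducing ferric iron at the root surface and importing ferrous iron. Shoots receive it through the xylem and phloem, and when it is short both tissues change the expression of transport, storage and iron-using proteins. The deposited files give gene identifiers of the form Potri without names or functions. None of the 42950 identifiers matched the P. tomentosa reference table of 60139 genes, so identifiers are given as they stand, without roles. Lists of iron, photosynthesis or tissue marker genes were not analysed here, and the tissue labels could not be set against marker genes.

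Tissue coincided with how reads were assigned, and their effects cannot be told apart. Of the reads that fell in a single gene, in no gene or in several, 1.31% ± 0.0616 fell in no gene in Fe-deficient roots, against 50.0% ± 0.0414 in Fe-deficient shoots (SD, n = 3 each). Root and shoot libraries also carry different styles of title. Reads counted in genes numbered 8663523 to 10886552 in Fe-deficient roots and 5947696 to 6127916 in Fe-deficient shoots. Levels below are counts scaled to a gene-count total of 1e6 (CPM) with edgeR's TMM scaling, unless stated otherwise. They are not divided by gene length, so they compare libraries and not genes. In whole tissue, fewer cells of a type and less RNA per cell cannot be told apart.

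Tissue was the main axis of variation among the 6 libraries. The first principal component held 91.0% of the variance of log2 CPM and separated roots from shoots, and the second held 2.99%. Spearman's rho across genes was 0.976 to 0.977 between Fe-deficient root libraries, 0.970 to 0.972 between Fe-deficient shoot libraries and 0.864 to 0.880 between a root and a shoot library. Counts were more evenly spread over genes in roots. The genes needed to hold 50% of gene counts numbered 2078, 2140 and 2178 in the 3 Fe-deficient root libraries, against 1313, 1472 and 1306 in the 3 Fe-deficient shoot libraries. The 10 most abundant genes held 2.29% ± 0.268 of gene counts in roots and 5.54% ± 0.317 in shoots (SD, n = 3 each). Root libraries detected 29138 ± 325 genes and shoot libraries 28114 ± 139. The root libraries held more counts, and genes detected were not compared at equal depth. For each of these measures the groups did not overlap, and the two-sided exact permutation p was 0.1, the smallest that 3 against 3 libraries allow (0.1 after adjustment over 6 measures).

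Most genes differed between the tissues without Fe, in near-equal numbers each way. By edgeR's quasi-likelihood test, 15245 of the 23871 genes tested had an adjusted p under 0.05, which is 63.9%. Levels were higher in roots for 7681 of them (32.2% of genes tested) and higher in shoots for 7564 (31.7%). The replicates of the tissues did not overlap in 16783 genes (70.3%). Because tissue and read assignment coincide, the account rests on large differences, though the part of read assignment in these was not tested. They were taken as called genes with a fitted difference of at least 8-fold, a log2 fold change of at least 3. By this rule 1551 genes were higher in roots (6.50% of genes tested) and 1942 higher in shoots (8.14%). Scaling by gene-count totals without TMM moved the median log2 fold change of all genes by 0.32, to 0.36 against 0.03, and turned this order round. The large differences then numbered 1880 towards roots and 1696 towards shoots, and 63.3% of all calls were higher in roots, against 50.4% with TMM.

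The tissues differed in how far the large differences reached. Between 8-fold and 16-fold, 710 called genes were higher in roots and 728 in shoots, and between 16-fold and 64-fold the numbers were 601 and 590. At 64-fold or more, 240 genes were higher in roots and 624 in shoots. These upper folds include genes without a count in the lower tissue, 115 of the large root differences and 265 of the large shoot differences, whose fitted fold depends on edgeR's prior count. Root libraries also held more counts, so lower levels could be seen in roots than in shoots. The numbers in these fold ranges were not counted again at equal depth. The median log2 fold change was 4.11 for large root differences and -4.61 for large shoot differences. All 1551 large root differences and 1938 of the 1942 large shoot differences had replicates that did not overlap. The rule used these folds, so they describe the lists and test nothing.

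**Figure D1:**
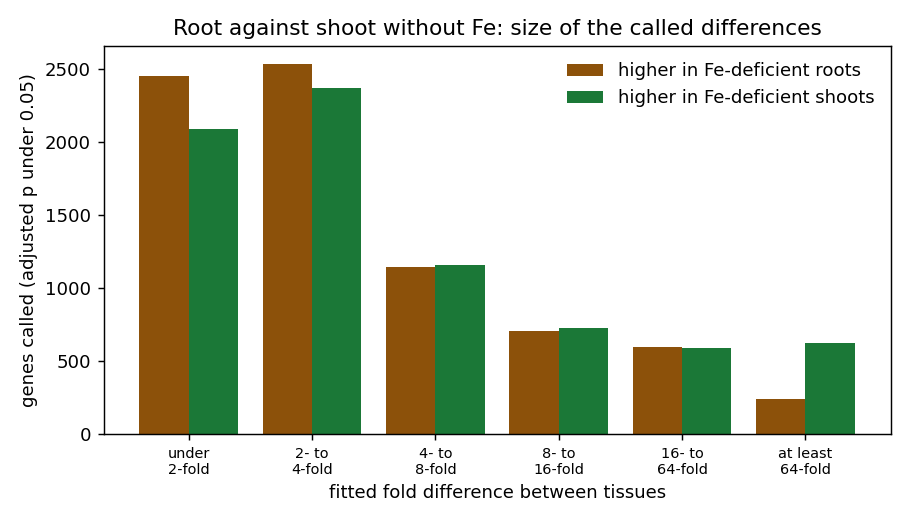
Number of genes called by edgeR (adjusted p under 0.05; y axis) by fitted fold difference between the tissues without Fe (x axis), for genes higher in Fe-deficient roots (brown) and in Fe-deficient shoots (green). The bars are of similar height from 4-fold to 64-fold, while at 64-fold or more they stand at 240 genes for roots and 624 for shoots.

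**Figure D2:**
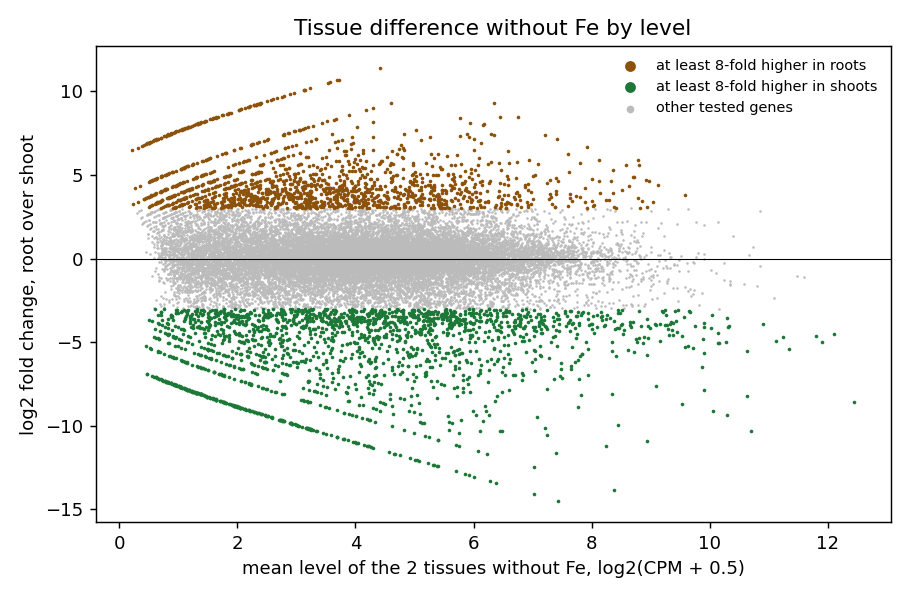
Log2 fold change of root over shoot without Fe (y axis) against the mean level of the tissues on the scale of log2(CPM + 0.5) (x axis), 1 point per tested gene. Coloured points are the 1551 genes at least 8-fold higher in roots and the 1942 at least 8-fold higher in shoots, and grey points the other tested genes.

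The large differences took up very different parts of the 2 transcriptomes. Genes at least 8-fold higher in roots held 9.18% ± 1.10 of the counted reads in Fe-deficient roots, against 0.451% ± 0.0986 in Fe-deficient shoots. Genes at least 8-fold higher in shoots held 1.52% ± 0.0784 in Fe-deficient roots, against 25.9% ± 0.237 in Fe-deficient shoots (SD, n = 3 each). These shares describe genes chosen on the same libraries. In the Fe-sufficient libraries, which did not enter the choice, the first list held 8.74% ± 0.210 of gene counts in roots and 0.350% ± 0.0595 in shoots. The second held 1.31% ± 0.0864 in roots and 33.1% ± 2.77 in shoots. The Fe-deficient shoots (25.7% to 26.1%) thus lay below the Fe-sufficient shoots (30.2% to 35.7%) in the share taken by shoot-biased genes, without overlap.

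**Figure D3:**
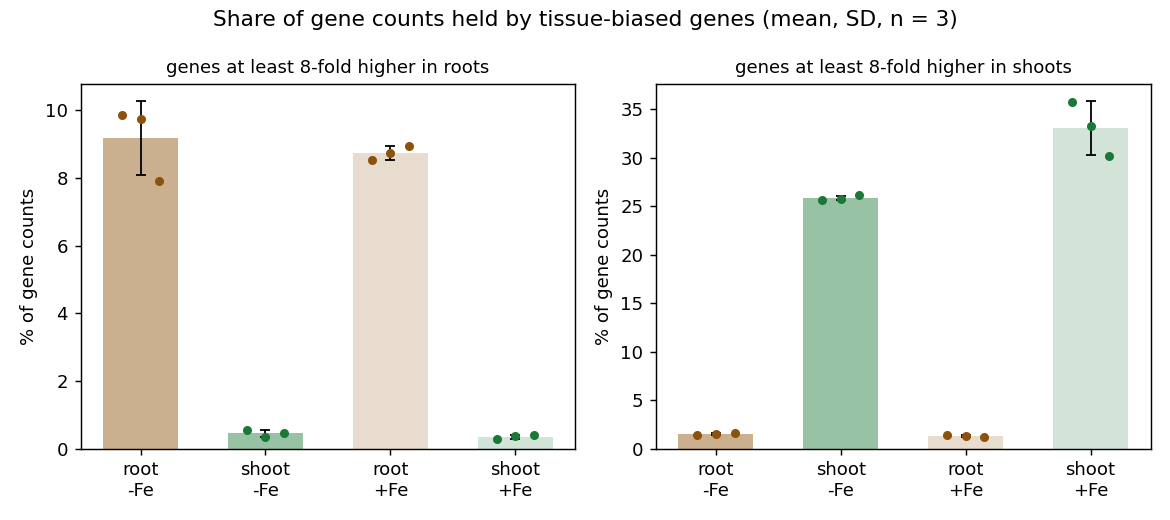
Share of gene counts (y axis, percent) held by the genes at least 8-fold higher in roots without Fe (left) and at least 8-fold higher in shoots without Fe (right), in Fe-deficient (-Fe) and Fe-sufficient (+Fe) roots and shoots. Bars are means, error bars SD and points the 3 libraries of each group. Shoot-biased genes held 25.9% in Fe-deficient shoots and 33.1% in Fe-sufficient shoots.

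Some genes had counts in one tissue alone without Fe. At least 1 CPM (here without TMM) in all 3 Fe-deficient root libraries with 0 counts in all 3 Fe-deficient shoot libraries was found for 157 genes, 0.366% of the 42950 listed. Their median level in roots was 2.98 CPM, the highest was 41.6 CPM, and 17 exceeded 10 CPM. The reverse held for 306 genes (0.712%), with a median of 5.15 CPM in shoots, a highest level of 346 CPM and 90 genes above 10 CPM. Of the 157, 91 also had 0 counts in Fe-sufficient shoots, and of the 306, 219 had 0 counts in Fe-sufficient roots. The rule was met with Fe as well by 69 of the root genes and 189 of the shoot genes. Leaving out a library eases the rule, so the numbers can then only stay or rise. The root number was 241 without Fe-deficient shoot replicate 1 and 236 without Fe-deficient shoot replicate 3. A count of 0 at this depth allows up to 3 counts over a group, and this covers counting error only.

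Potri.011G110400 had the highest level in roots among genes with 0 counts in Fe-deficient shoots. It had 64.3, 41.6 and 19.0 CPM in the Fe-deficient roots, a sum of 1295 counts, against 0 counts in each Fe-deficient shoot. All 3 roots were high, and the groups were far apart. Set against the floor of 3 counts over the shoot group, its level was at least 221-fold higher in roots (adjusted p = 0.000543 by edgeR). With Fe it had 62.4, 49.5 and 38.6 CPM in roots and 0.211, 0 and 0.444 CPM in shoots, so a few shoot counts appeared there.

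Potri.010G026500 had the largest fitted root excess among genes with at least 30 counts over the lower tissue. Its levels were 449, 222 and 341 CPM in the Fe-deficient roots, against 2.69, 1.40 and 2.87 CPM in the Fe-deficient shoots. Every root library lay far above every shoot library. The log2 fold change was 7.18 ± 0.36 (SE), with an adjusted p of 2.30e-07 by edgeR. With Fe, roots had 148, 266 and 263 CPM and shoots 2.96, 0.829 and 4.21 CPM. The gap without Fe exceeded that with Fe by a log2 value of 0.77 ± 0.66 (SE), which did not pass the test of the difference (adjusted p = 0.706 by edgeR).

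Among shoot genes, Potri.003G099500 had no count in any Fe-deficient root library and 339, 339 and 360 CPM in the Fe-deficient shoots, a sum of 5832 counts. The 3 shoots were alike and the roots empty. It was at least 3789-fold lower in roots against the floor of 3 counts over the group (adjusted p = 1.42e-08 by edgeR). With Fe the roots were again at 0 counts, and the shoots had 468, 448 and 422 CPM, each above the shoots without Fe.

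Potri.001G348900 had the largest fitted shoot excess among genes with at least 30 counts over the lower tissue. It stood at 3.78, 1.39 and 2.69 CPM in the Fe-deficient roots, against 2888, 3207 and 3824 CPM in the Fe-deficient shoots. The log2 fold change was -10.29 ± 0.35 (SE), with an adjusted p of 1.57e-08 by edgeR. With Fe it had 2.95, 2.78 and 2.48 CPM in roots and 5473, 5313 and 5054 CPM in shoots. Root levels in the 2 Fe states overlapped, while all shoots without Fe lay below all shoots with Fe. The difference between the gaps, 0.61 ± 0.37 (SE, log2), did not pass the test (adjusted p = 0.545 by edgeR). The calls of all 4 genes held when any of the 6 libraries was left out.

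**Figure D4:**
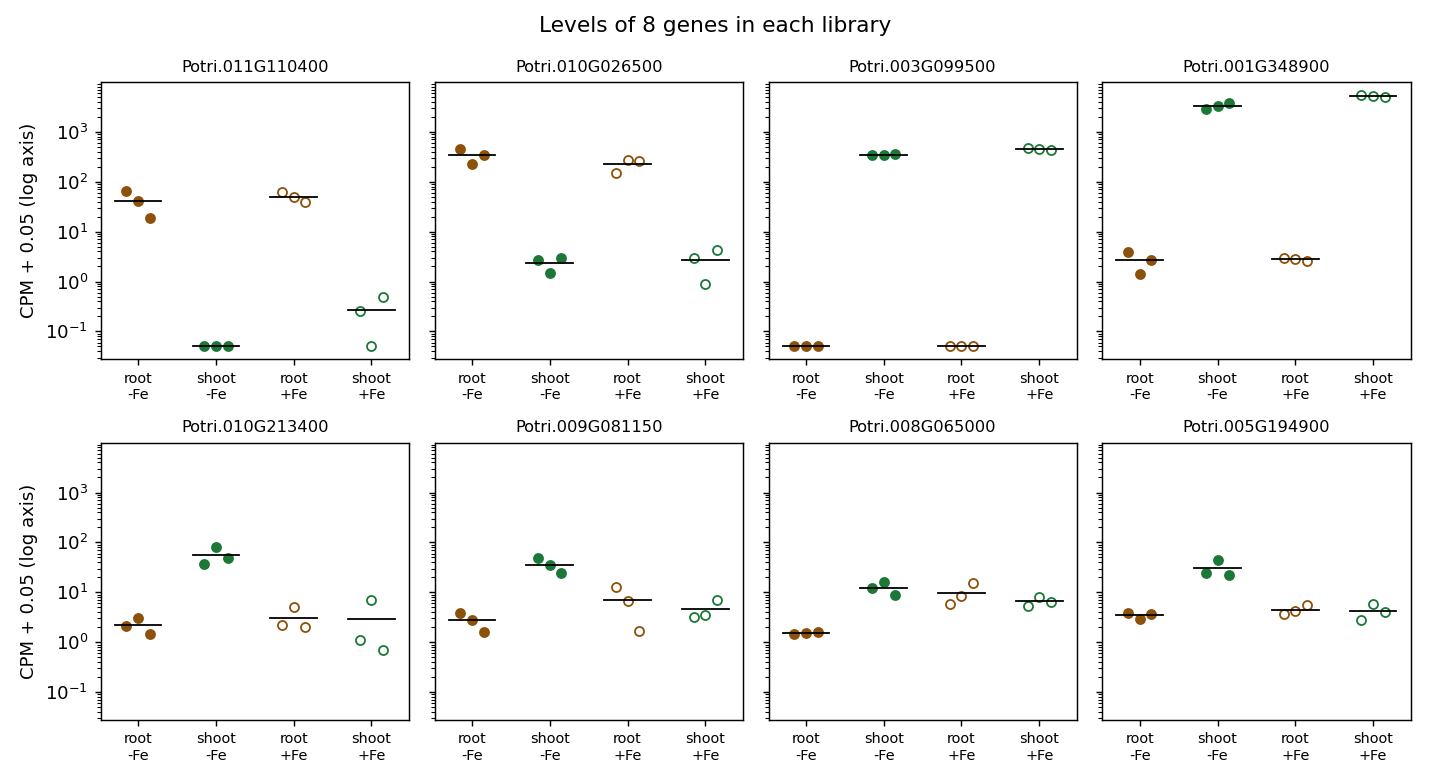
Levels of 8 genes in each of the 12 libraries (y axis, CPM + 0.05 on a log axis), in Fe-deficient (-Fe, filled) and Fe-sufficient (+Fe, open) roots and shoots. Points are libraries and lines group means. The upper row shows 4 genes with a large tissue difference in both Fe states, and the lower row 4 genes whose shoot excess was called without Fe and not with Fe.

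The same comparison of roots with shoots was then made in the Fe-sufficient libraries, which are separate from the 6 above. With Fe, 14529 of 23893 genes tested were called (60.8%), 1790 of them at least 8-fold higher in roots (7.49%) and 2209 at least 8-fold higher in shoots (9.25%). Large differences in both Fe states numbered 1236 towards roots, which is 79.7% of the list without Fe and 69.1% of the list with Fe. Towards shoots they numbered 1712, which is 88.2% and 77.5% of those lists. Over the 23307 genes tested in both states, the fitted gaps correlated at a Pearson's r of 0.952 and a Spearman's rho of 0.931. This is a correlation over genes, which are not independent. The sign was the same for 88.5% of them. Of the 3280 genes with a large difference without Fe that were also tested with Fe, 2115 (64.5%) had a gap within 2-fold of the gap with Fe. The sign was opposite for 4, of which 1 was called with Fe.

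Where a difference was large in both states, the gap was smaller without Fe in most genes. The median log2 fold change of the 1236 root genes was 4.29 without Fe and 4.72 with Fe, and 758 (61.3%) had the narrower gap without Fe. For the 1712 shoot genes the medians were -4.71 without Fe and -5.35 with Fe, and 1216 (71.0%) were narrower without Fe. When 1 library was left out, the narrower share was 52.85% to 67.49% for root genes and 67.09% to 71.97% for shoot genes. The lowest root share was that without Fe-deficient shoot replicate 1. Over all genes tested in both states the median size of the gap was 0.87 without Fe and 0.91 with Fe. The composition of the shoot libraries moved with this difference. The 10 most abundant genes held 5.18% to 5.73% of counted reads in Fe-deficient shoots and 7.10% to 9.27% in Fe-sufficient shoots, and the TMM factors were 0.910 to 0.958 and 0.770 to 0.841. Their part in the narrower gaps was not tested.

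Whether a tissue difference depended on Fe was tested gene by gene as a contrast in 1 edgeR fit of all 12 libraries, the gap between root and shoot without Fe minus the gap with Fe. Of 25046 genes tested, 313 were called (1.25%), with 164 moved towards roots without Fe (0.655%) and 149 towards shoots (0.595%). An unadjusted p under 0.05 was found for 3107 (12.4%). On the scale of CPM + 0.5, 198 of the 313 had a narrower gap without Fe in the same direction, 39 a wider one, and 76 had the opposite order of tissues. The number of calls depended on the tool and on single libraries: DESeq2 called 834. With edgeR it was 116 without Fe-sufficient root replicate 2, 203 without Fe-deficient root replicate 1 and 164 without Fe-deficient root replicate 2. It was 121 without Fe-sufficient shoot replicate 1, and 104, 135 and 147 without Fe-deficient shoot replicates 1, 2 and 3.

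**Figure D5:**
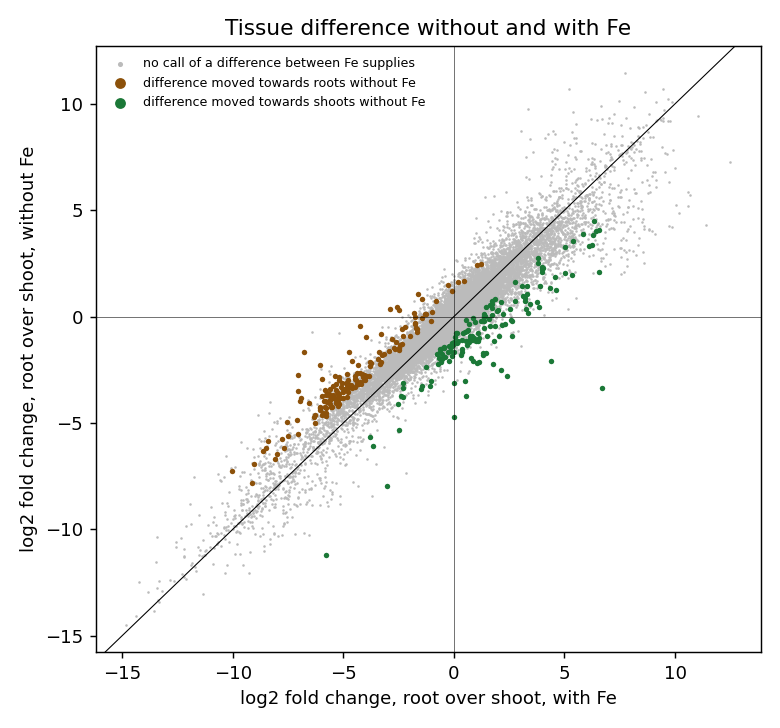
Log2 fold change of root over shoot without Fe (y axis) against that with Fe (x axis), 1 point per gene tested in both states, with the line of equal values. Coloured points are the called genes of the 12-library test, moved towards roots (brown) or towards shoots (green) without Fe. Most brown points lie at shoot-biased values on both axes and above the line, where the shoot excess was narrower without Fe.

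Few large root differences were called as dependent on Fe. Of the 1551 genes at least 8-fold higher in roots, all tested, 9 were called (0.580%, against 1.25% of all genes tested), and in all 9 the gap was narrower without Fe. This is a move towards shoots, found for 0.595% of all genes, so the share was near that of all genes. The 1551 genes had a median of 0.657 CPM in Fe-deficient shoots, so many of these gaps rest on few shoot counts. At an unadjusted p under 0.05 edgeR had 62 of them moved towards roots and 112 away. No large root difference was called as wider without Fe by edgeR (0 genes, against 0.655% of all genes moved towards roots), while DESeq2 called 9. Leaving out 1 library gave 0 to 7 such genes: 7 without Fe-sufficient root replicate 3, and 1 without Fe-deficient root replicate 2 or 3, Fe-sufficient shoot replicate 1 or any Fe-deficient shoot. The 9 narrower genes had a median log2 fold change of 3.83 without Fe and 6.23 with Fe. Their median levels were 27.7 CPM in roots and 2.02 CPM in shoots without Fe, and 59.6 CPM in roots and 0.783 CPM in shoots with Fe. The root mean was lower without Fe in 8 and the shoot mean higher in all 9, as the choice by this contrast favours. Their number was 4 without Fe-sufficient root replicate 2 or 3, Fe-deficient root replicate 2 or Fe-deficient shoot replicate 3. It was 3 without Fe-sufficient shoot replicate 2 or 3, 2 without Fe-deficient shoot replicate 1 and 1 without Fe-sufficient shoot replicate 1.

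A further 111 genes at least 8-fold higher in roots without Fe were not called (13) or not tested (98) with Fe. Their median root level was 2.47 CPM without Fe and 1.48 CPM with Fe, and the root mean was higher without Fe in 102 of them. The choice of genes by their level in the Fe-deficient libraries favours this direction, so these values describe the list and test nothing. None of the 111 was called in the 12-library test (0 genes by edgeR and 0 by DESeq2), and 13 had an unadjusted p under 0.05 by edgeR, all with the gap wider without Fe, the direction the choice favours. This contrast has no base for members at 0 counts in every shoot library, so its missing call says nothing about them. One of these is Potri.004G193400, with 18.5, 7.87 and 40.0 CPM in Fe-deficient roots and 0, 0 and 0.0885 CPM in Fe-sufficient roots, whose change within roots is given with the genes at 0 counts. The member with the highest root level without Fe, Potri.012G134100, overlapped between the Fe states. It had 21.6, 31.4 and 18.1 CPM in Fe-deficient roots and 0.179, 0 and 0 CPM in Fe-deficient shoots. With Fe the root libraries stood at 0.922, 13.0 and 37.0 CPM, a range that encloses all roots without Fe, and the shoots at 0. These genes and those named from here on were chosen after their values were seen, apart from Potri.001G226500 and Potri.001G226800.

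The large shoot differences called as dependent on Fe were mostly narrower without Fe. Of the 1942 genes at least 8-fold higher in shoots, all tested, 107 were called (5.51%, against 1.25% of all genes tested). In 87 the gap was narrower without Fe (4.48%, against 0.655% of all genes moved towards roots), and in 20 it was wider (1.03%, against 0.595% moved towards shoots). The list was chosen by a large gap in the Fe-deficient libraries, which also enter this contrast. That choice favours a wider gap without Fe, so the share of wider genes tests nothing. At an unadjusted p under 0.05 the numbers were 376 narrower and 94 wider. All 87 were at least 8-fold higher in shoots with Fe as well. Most of them were abundant: 66 (75.9%) exceeded 100 CPM in Fe-deficient shoots, against 22.7% of all large shoot differences. The shares of calls above were not matched for level. The median log2 fold change of the 87 was -3.85 without Fe and -5.55 with Fe, and the difference between the gaps was 0.96 to 3.50, with a median of 1.55.

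The levels behind the narrower shoot differences are given as a description, since the contrast that chose the genes favours a lower shoot level or a higher root level without Fe. Median levels of the 87 genes were 12.8 CPM in roots and 249 CPM in shoots without Fe, against 7.13 CPM in roots and 398 CPM in shoots with Fe. The shoot mean was lower without Fe in 82, the root mean higher in 85, and both held in 80. Without TMM, the 87 genes held 0.355% ± 0.0219 of counted reads in Fe-deficient roots and 4.72% ± 0.284 in their shoots, against 0.256% ± 0.0354 in Fe-sufficient roots and 8.14% ± 0.910 in Fe-sufficient shoots (SD, n = 3 each). The test of the response to Fe within each tissue covered all genes, and its calls for these 87 are not reported here. The member with the most counts, Potri.005G239300, averaged 274 ± 44.3 CPM in roots and 6867 ± 819 CPM in shoots without Fe, and 191 ± 21.3 CPM in roots and 14188 ± 4073 CPM in shoots with Fe (SD, n = 3 each).

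The number of narrower shoot differences depended on which libraries were in the fit. It was 30 without Fe-sufficient root replicate 2, 41 without Fe-sufficient root replicate 3, 56 without Fe-deficient root replicate 1 and 41 without Fe-deficient root replicate 2. It was 32 without Fe-sufficient shoot replicate 1, and 31, 37 and 41 without Fe-deficient shoot replicates 1, 2 and 3. In each of these fits it was larger than the number of wider shoot differences, which ranged over 8 to 19 when 1 library was left out.

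A shoot excess that was large without Fe and wider than with Fe by the 12-library test was found for 20 genes, most of which were called higher in shoots with Fe too. Their median log2 fold change was -3.56 without Fe and -2.29 with Fe, the second over the 19 that were tested there. With Fe, 10 of them were still called higher in shoots at under 8-fold, 4 at 8-fold or more, 4 were not called, 1 was not tested and 1 was at least 8-fold higher in roots. Median levels were 3.11 CPM in roots and 62.4 CPM in shoots without Fe, against 8.38 CPM in roots and 39.1 CPM in shoots with Fe. The root mean was lower without Fe in 19 and the shoot mean higher in 18, directions that the choice by this contrast favours. The shoot level moved more in 12 and the root level in 8. In all 20 the tissues did not overlap without Fe. Together they held 0.250% ± 0.00629 of the counted reads in Fe-deficient shoots, against 0.129% ± 0.00529 in Fe-sufficient shoots (SD, n = 3 each), values that chose them in part. The number was 12 without Fe-sufficient root replicate 2, Fe-deficient root replicate 2 or Fe-deficient shoot replicate 2. It was 13 without Fe-sufficient shoot replicate 1 or 3 or Fe-deficient shoot replicate 3, and 8 without Fe-deficient shoot replicate 1.

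The member with the largest difference between the gaps, Potri.001G226500, was high in opposite tissues in the 2 Fe states. It had 0.715, 0.0996 and 0.921 CPM in Fe-deficient roots and 5.91, 9.12 and 3.76 CPM in Fe-deficient shoots, sums of 20 and 106 counts. With Fe it had 1.75, 1.83 and 1.33 CPM in roots, a sum of 55 counts, and 0 counts in shoots. The tissues did not overlap in either state, and their order was opposite. The log2 fold change was -3.36 ± 0.57 (SE) without Fe (adjusted p = 0.000486 by edgeR). With Fe it was 6.70 (adjusted p = 0.00150 by edgeR), a value whose size depends on the prior count because the shoots were at 0. The difference between the gaps, likewise dependent on it, was -10.11 ± 1.39 (SE, adjusted p = 0.00637 by edgeR), and this call held in all 12 fits that left out a library.

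The second such gene, Potri.001G226800, was low throughout. It had 0.408, 0.398 and 0.307 CPM in Fe-deficient roots and 4.84, 4.74 and 2.15 CPM in Fe-deficient shoots. With Fe it had 1.38, 0.261 and 0.443 CPM in roots and 0, 0.207 and 0 CPM in shoots. Shoots were thus above roots without Fe and below them with Fe, the second on 23 counts in roots and 1 in shoots. The log2 fold change without Fe was -3.36 ± 0.50 (SE, adjusted p = 0.000178 by edgeR), and the difference between the gaps was -6.39 ± 1.24 (SE, adjusted p = 0.0279 by edgeR). The call of that difference was lost without Fe-sufficient root replicate 1, Fe-deficient root replicate 2, Fe-sufficient shoot replicate 1 or 3, or Fe-deficient shoot replicate 1 or 2, at adjusted p values of 0.0530 to 0.0773 by edgeR.

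The 4 members that were not called with Fe had similar levels in both tissues there. Potri.010G213400 had 2.04, 2.99 and 1.38 CPM in Fe-deficient roots and 36.7, 82.5 and 48.0 CPM in Fe-deficient shoots. At 100 µM Fe there were 2.12, 5.04 and 1.95 CPM in roots and 1.06, 7.05 and 0.665 CPM in shoots. The Fe-deficient shoots stood apart from the other 3 groups, which overlapped. Without Fe the log2 fold change was -4.72 ± 0.38 (SE, adjusted p = 6.04e-06 by edgeR), and the difference between the gaps was -4.76 ± 0.92 (SE, adjusted p = 0.0319 by edgeR). That second call was lost, at adjusted p values of 0.0518 to 0.0911 by edgeR, without Fe-sufficient root replicate 2, Fe-deficient root replicate 1, Fe-sufficient shoot replicate 1 or 3, or any Fe-deficient shoot.

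Potri.009G081150 had 3.88, 2.79 and 1.54 CPM in Fe-deficient roots and 48.6, 34.9 and 24.4 CPM in Fe-deficient shoots. In the Fe-sufficient libraries it had 12.6, 6.61 and 1.59 CPM in roots and 3.17, 3.52 and 6.88 CPM in shoots. Here too the Fe-deficient shoots alone were high, and the Fe-sufficient roots were the most spread. Without Fe the log2 fold change was -3.74 ± 0.36 (SE, adjusted p = 1.44e-05 by edgeR), and the difference between the gaps was -4.35 ± 0.85 (SE, adjusted p = 0.0332 by edgeR). The call of the difference was lost without Fe-sufficient root replicate 2, Fe-deficient root replicate 2, Fe-sufficient shoot replicate 1 or 2, or Fe-deficient shoot replicate 1 or 2, at adjusted p values of 0.0546 to 0.0881 by edgeR.

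Potri.005G194900 followed the same pattern, with 3.88, 2.89 and 3.68 CPM in Fe-deficient roots and 24.6, 44.6 and 22.0 CPM in Fe-deficient shoots. With Fe it had 3.69, 4.08 and 5.49 CPM in roots and 2.74, 5.80 and 3.99 CPM in shoots. The difference between the gaps was -3.20 ± 0.47 (SE, adjusted p = 0.00592 by edgeR), and its call held whichever library was left out. In Potri.008G065000 it was the Fe-deficient roots that stood apart. Roots had 1.43, 1.49 and 1.54 CPM without Fe, against 5.90, 8.52 and 15.1 CPM with Fe. The shoots had 12.4, 16.1 and 8.60 CPM without Fe and 5.28, 8.08 and 6.43 CPM with Fe. Its difference between the gaps was -3.62 ± 0.51 (SE, adjusted p = 0.00532 by edgeR), which also held in all 12 fits that left out a library.

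For genes at 0 counts in all 6 libraries of the other tissue, the difference between gaps has no base, since its SE was at least 14.0 (log2) for the 69 root genes and at least 2.83 for the 192 shoot genes. The response to Fe within the tissue that had counts was used instead, in a test added after the data were seen. The lists were chosen for a large difference without Fe, which lets in genes with counts without Fe alone and leaves out genes lost without Fe. The numbers that rose and fell, and their medians, are therefore descriptions and cannot be read against all genes. Of the 69 large root differences of this kind, 1 rose without Fe and 0 fell, by edgeR and by DESeq2, and the median log2 change was 0.01. At an unadjusted p under 0.05 edgeR had 2 that rose and 2 that fell. Over all genes tested, 1.01% rose and 1.01% fell in roots, given as background. The gene that rose, Potri.004G193400, had 18.5, 7.87 and 40.0 CPM in Fe-deficient roots, against 0, 0 and 0.0885 CPM in Fe-sufficient roots, and 0 counts in every shoot. All but 1 of its counts lay in Fe-deficient roots. Against the floor of 3 counts, the lower bound of its excess in Fe-deficient roots over Fe-deficient shoots was about 134-fold (adjusted p = 0.00317 by edgeR). The log2 change of Fe-deficient over Fe-sufficient roots was 8.94 ± 0.99 (SE, adjusted p = 0.00529 by edgeR), a size that rests on 1 library with counts among the Fe-sufficient roots, and its call held whichever library was left out.

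Of the 192 shoot genes at 0 counts in all 6 root libraries, 3 rose without Fe, 0 fell by edgeR, and the median log2 change was -0.06. At an unadjusted p under 0.05 edgeR had 8 that rose and 17 that fell, and DESeq2 called 4 that rose and 4 that fell. The background over all genes tested was 0.371% that rose and 0.403% that fell in shoots. Potri.015G104200 had 61.3, 69.5 and 64.0 CPM in Fe-deficient shoots and 19.0, 24.7 and 17.1 CPM in Fe-sufficient shoots, groups that lay far apart. Its log2 change was 1.68 ± 0.19 (SE, adjusted p = 0.00348 by edgeR), and the call held in all 12 fits that left out a library. Potri.001G324600 had 23.5, 14.7 and 19.4 CPM in Fe-deficient shoots and 3.59, 1.66 and 6.21 CPM in Fe-sufficient shoots (log2 change 2.33 ± 0.43, SE, adjusted p = 0.0439 by edgeR). Potri.001G080000 had 3.41, 6.32 and 4.12 CPM in Fe-deficient shoots and 0.422, 0 and 0.222 CPM in Fe-sufficient shoots (log2 change 4.34 ± 0.75, SE, adjusted p = 0.0341 by edgeR). The last call was lost without any 1 of the 6 shoot libraries and that of Potri.001G324600 without any 1 of them but Fe-sufficient shoot replicate 3. The number that rose was then 2 without that library and 1 without any other shoot library.

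The order of the tissues was called in opposite directions in the 2 Fe states, with a call in the 12-library test as well, for 30 genes. In 28 of them shoots were higher without Fe and roots with Fe. Their median log2 fold change was -1.12 without Fe and 1.11 with Fe, so most of these gaps were small. Median levels were 14.6 CPM in roots and 31.1 CPM in shoots without Fe, against 30.6 CPM in roots and 14.6 CPM in shoots with Fe. The root mean was lower without Fe in 26, the shoot mean higher in 27, and both held in 25, again directions that the choice favours. The difference between the gaps ranged in size from 1.26 to 10.1, the highest being that of Potri.001G226500.

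The other 2 genes changed order the opposite way. Potri.013G038100 had 64.0, 33.9 and 61.9 CPM in Fe-deficient roots and 21.3, 33.7 and 33.9 CPM in Fe-deficient shoots, groups that met at 33.9 CPM. In the Fe-sufficient libraries roots had 13.3, 14.1 and 24.5 CPM and shoots 48.3, 47.9 and 39.0 CPM. Its tissue gap was 0.85 ± 0.27 (log2) without Fe (SE, adjusted p = 0.0201 by edgeR) and -1.43 ± 0.25 with Fe (SE, adjusted p = 0.000951 by edgeR). The difference between the gaps was 2.23 ± 0.40 (SE, adjusted p = 0.0206 by edgeR). The call without Fe was lost without Fe-deficient root replicate 1 or 3 or Fe-deficient shoot replicate 1 (adjusted p 0.0563 to 0.0749 by edgeR). That of the difference was lost without Fe-sufficient root replicate 2, Fe-sufficient shoot replicate 1 or Fe-deficient shoot replicate 1 (adjusted p 0.0563 to 0.0596 by edgeR).

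Potri.008G142400 had 40.4, 24.6 and 46.9 CPM in Fe-deficient roots and 21.5, 22.5 and 23.5 CPM in Fe-deficient shoots. The Fe-sufficient roots had 19.9, 19.3 and 18.4 CPM and the Fe-sufficient shoots 27.9, 41.9 and 26.2 CPM. Roots lay above shoots in every library without Fe and below them in every library with Fe. The log2 fold change was 0.73 ± 0.23 without Fe (SE, adjusted p = 0.0155 by edgeR) and -0.79 ± 0.21 with Fe (SE, adjusted p = 0.00936 by edgeR). The difference between the gaps was 1.47 ± 0.32 (SE, adjusted p = 0.0454 by edgeR), and its call was kept only without Fe-deficient root replicate 2 or Fe-sufficient shoot replicate 3. In the other 10 fits that left out a library the adjusted p was 0.0706 to 0.125 by edgeR. The call without Fe was lost without Fe-deficient root replicate 3 or Fe-deficient shoot replicate 1 or 2 (adjusted p 0.0518 to 0.0572 by edgeR).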

How the data were processed

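RNA-seq libraries came from plants at 0 or 100 µM Fe, 3 each of roots and shoots. The deposited values are raw counts: reads per gene identifier, not normalised, in 1 file per library. The submitters' processing notes name HISAT2 2.0.5, Trimmomatic 0.36, edgeR 3.16.5 and HTSeq 2.2.1. Settings, build, annotation and strand of the counting were not given in the sources used here. In each file 5 rows of reads given to no gene held 58.3% to 63.7% of listed reads in Fe-deficient roots and 72.6% to 73.0% in Fe-deficient shoots, and stayed out of library sizes and tests.

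Tests used edgeR 4.0.16 (R 4.3.3; TMM, filterByExpr with a minimum count of 10, robust quasi-likelihood F test) with Benjamini-Hochberg adjustment over all genes tested, at 0.05: 6 libraries per Fe state, and all 12 for the difference between gaps. The SE of a fold change came from its size and F (size over the root of F). CPM were scaled over all 12 libraries, and shares of gene counts used no TMM. Counts of replicates differed by more than sampling noise (chi-square per gene 6.23 to 22.6 between Fe-deficient replicates). Root replicates were numbered in accession order. The code was tested on simulated data with rises planted in Fe-deficient roots. The root against shoot fit called 93% of 4-fold and 99% of 16-fold rises, and 20 of its 212 calls were false. For the difference between gaps these were 73% and 90%, with 10 of 173 calls false.

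Genes and classes were chosen with earlier results of these data known. Per direction, the rule named the gene with the highest mean CPM among those at 0 counts in the other tissue, the gene with the largest fold among those with at least 30 counts over the lower tissue, and 2 genes with the largest difference between gaps. Genes named beyond it are said to be so. Alternatives were DESeq2 1.42.0, other scalings, filters and thresholds, 1 fit of all 12 libraries, glmTreat, roots thinned to shoot depth, a replicate block and leaving out each library. Near-identical gene copies and overlapping genes were not analysed here, so reads they share may be split between them.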

Additional observations from a re-analysis of the deposited data

Results flagged for a closer look

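Each of 8 genes was picked out because its difference between root and shoot was not the same in the 2 Fe states, by the edgeR test of the difference of gaps in all 12 libraries (log2 values, without Fe minus with Fe, adjusted p under 0.05). The values were -10.11 for Potri.001G226500 and -6.39 for Potri.001G226800, both with 0 or 1 counts over the Fe-sufficient shoots. For the 4 genes with a shoot excess called without Fe alone they were -4.76 for Potri.010G213400, -4.35 for Potri.009G081150, -3.62 for Potri.008G065000 and -3.20 for Potri.005G194900. For the 2 genes that were higher in roots without Fe and higher in shoots with Fe they were 1.47 for Potri.008G142400 and 2.23 for Potri.013G038100. Groups of 3 libraries were not screened for single outlying values.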

How the results depend on the processing

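Libraries set the limit: with 3 per group, leaving out 1 gave 14285 to 14961 tissue calls without Fe, 1512 to 1901 large root and 2042 to 2098 large shoot differences, and 1197 to 1351 and 1723 to 1765 that were also large with Fe. The difference between gaps was called for 104 to 264 genes, with large root gaps wider without Fe for 0 to 7, wider shoot gaps for 8 to 19, narrower shoot gaps for 30 to 80 and narrower root gaps for 1 to 9. Genes with counts in 1 tissue alone numbered 184 to 241 in roots and 327 to 386 in shoots. Leaving out a library eases that rule, so these ranges lie above the numbers from all 6 libraries. Genes at 0 in the other tissue that rose without Fe numbered 1 to 1 in roots and 1 to 3 in shoots.

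DESeq2 called 834 differences between gaps, with 9 wider root, 33 wider shoot, 187 narrower shoot and 22 narrower root genes. RLE size factors and no filter each gave 1 wider root gene. An adjusted p under 0.01 gave 56 calls, 8 wider shoot, 20 narrower shoot and 0 narrower root genes. The range of 1 to 9 narrower root genes across libraries left out was at 0.05. At 4-fold or more there were 2699 large root and 3100 large shoot differences, of which 2189 and 2711 were also large with Fe, and 2 wider root, 32 wider shoot and 17 narrower root genes. At 16-fold or more these numbers were 841, 1214, 628 and 1054, with 7 wider shoot, 36 narrower shoot and 3 narrower root genes. At 5 CPM or more, 28 root and 118 shoot genes had counts in 1 tissue alone. DESeq2's large differences shared 1541 of 1551 root and 1942 of 1942 shoot genes with those of edgeR.

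Shoot titles carry replicate numbers and root titles do not, so no paired fit of root against shoot could be made. Deviations of same-numbered shoots correlated at -0.139, -0.000906 and 0.113, so the numbers are not taken to pair libraries. With the shoot number as a replicate block, 166 differences between gaps were called, with 1 wider root, 13 wider shoot and 48 narrower shoot genes, and 1 shoot gene at 0 in roots that rose without Fe. The block gave adjusted p values by edgeR of 0.0775 for Potri.008G142400, 0.0509 for Potri.013G038100 and 0.0708 for Potri.009G081150 (difference between gaps), and of 0.119 for Potri.001G080000 and 0.0633 for Potri.001G324600 (change in shoots). Potri.010G213400 lost its call with no filter (0.0669) and with thinned roots (0.0525), and Potri.009G081150 with no filter (0.0606). No named gene with a call changed direction under any alternative run.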

Other observations

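Many genes with large tissue differences stood next to each other in the files' order of identifiers. Of the 1551 genes at least 8-fold higher in roots without Fe, 19.0% stood next to another of them, while 6.36% of the other tested genes stood next to one. Of the 1942 genes at least 8-fold higher in shoots, 20.3% stood next to another of them, against 9.03% of the other tested genes. Runs of at least 3 comprised 67 root genes in 20 runs and 80 shoot genes in 23 runs. The share of reads that neighbouring or near-identical genes have in common was not analysed here.

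The longest runs were both of 6 shoot genes and were singled out after their values were seen. From Potri.005G154500 to Potri.005G155000, levels were 0.0672 to 1.32 CPM in Fe-deficient roots and 5.19 to 48.9 CPM in Fe-deficient shoots, with log2 fold changes of -9.33 to -3.04, and 5 of the 6 genes were also at least 8-fold higher in shoots with Fe. From Potri.013G136466 to Potri.013G136730, levels were 0.228 to 4.51 CPM in Fe-deficient roots and 27.2 to 294 CPM in Fe-deficient shoots, with log2 fold changes of -10.16 to -3.49, and all 6 were also large with Fe. In roots the longest runs held 4 genes.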
